A study of Mus musculus with 12 samples.

Results

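The mast cell granule proteases are a set of 10 genes whose enzymes are packed into the secretory granules of mast cells and of related leukocytes: the carboxypeptidase gene *Cpa3*, the cathepsin G gene *Ctsg*, the chymase genes *Cma1*, *Mcpt1*, *Mcpt2* and *Mcpt4*, the basophil protease gene *Mcpt8*, the tryptase genes *Tpsb2* and *Tpsab1*, and the granzyme B gene *Gzmb*. They were matched by symbol among 41388 listed RefSeq transcripts, and each of the 10 had 1 listed transcript. The set was chosen by name with expression values of these same comparisons already known, so its levels and fold changes are given as a description. No p-value is given for a member, and whether a member passed the call rule applied to all transcripts is stated beside the share of all transcripts that did, with nothing read from it.

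RNA-seq was performed on cultured mouse female germline stem cells (FGSCs), ovarian cells that were purified with an antibody to the germ cell protein MVH, in which *Stella* (*Dppa3*, a maternal factor acting on DNA methylation) had been deleted or overexpressed. Each of the 4 groups held 3 libraries. The KO group was *Stella* knockout FGSCs made by CRISPR/Cas9 from lentiviral guide RNAs and grown from 1 randomly selected clone, and KO-con was its control. The Over group carried a lentiviral *Stella* coding sequence under puromycin selection, and Over-con carried the control vector. All cells came from strain C57BL/6, were past passage 20, and were grown on inactivated STO feeder cells, a mouse embryonic fibroblast line, in medium with leukemia inhibitory factor, EGF, basic FGF and GDNF. The replicates were not stated to be separate cultures, so the errors below may be technical. The promoter that drives the *Stella* transgene was not given in the sources used here.

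Mast cell proteases are made as inactive proenzymes. The dipeptidyl peptidase cathepsin C removes the activating dipeptide from the chymases, cathepsin G and the granzymes, and the active enzymes are held in the granule by heparin chains on the proteoglycan serglycin until the cell degranulates. Chymases, cathepsin G and granzymes are encoded side by side in the chymase locus, the tryptases lie in a separate locus, and *Cpa3* lies alone. Connective tissue mast cells are known for CPA3, CMA1 and tryptase, mucosal mast cells for MCPT1 and MCPT2, basophils for MCPT8, neutrophils for cathepsin G, and cytotoxic lymphocytes for granzyme B.

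In the mm9 build, *Cpa3* (NM_007753) spans chr3:20115516-20142080 on the minus strand with 11 exons. The chymase locus runs over 320.8 kb, chr14:56560290-56881097, and holds 15 protein-coding genes, of which 7 are members: *Cma1* (NM_010780) at its low end, then *Mcpt1*, *Mcpt2*, *Mcpt4*, *Mcpt8* (NM_008572), *Ctsg* (NM_007800, chr14:56718718-56721411) and, at its high end, *Gzmb* (NM_013542, chr14:56877693-56881097). *Tpsab1* and *Tpsb2* lie 21.0 kb apart on chromosome 17. No other annotated gene overlaps a member. The share of a member's 30-base windows that also occur in a transcript of another gene was 0% for *Cpa3*, *Ctsg*, *Cma1* and *Mcpt8*, 0.951% for *Tpsb2*, 0.775% for *Tpsab1*, 1.44% for *Gzmb*, 3.93% for *Mcpt2* (with *Mcpt1*), 7.21% for *Mcpt1* and 14.2% for *Mcpt4*, so reads of the last 3 can be shared with their neighbours.

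The promoters of *Cpa3*, *Ctsg*, *Cma1* and *Gzmb*, the members called in KO against KO-con, are printed so that the genes higher and lower in KO can be read side by side. Each is the 250 bases before the RefSeq start (table build GRCm38.p6), 5′ to 3′ along the gene, and each had 1 exact match in mm9: *Cpa3* at chr3:20142081-20142330, *Ctsg* at chr14:56721412-56721661, *Gzmb* at chr14:56881172-56881421 and *Cma1* at chr14:56563513-56563762, all on the minus strand. Capitals mark AGATAA (letters that GATA factors can bind) and TGTGGT (letters that RUNX factors can bind), read on either strand. Other forms of these motifs were not searched, so a promoter without capitals may still hold one.
Cpa3: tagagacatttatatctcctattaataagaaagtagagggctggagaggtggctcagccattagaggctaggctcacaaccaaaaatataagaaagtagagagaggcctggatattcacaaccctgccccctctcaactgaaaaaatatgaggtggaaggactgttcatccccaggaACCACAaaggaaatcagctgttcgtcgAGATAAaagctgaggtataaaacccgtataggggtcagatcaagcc
Ctsg: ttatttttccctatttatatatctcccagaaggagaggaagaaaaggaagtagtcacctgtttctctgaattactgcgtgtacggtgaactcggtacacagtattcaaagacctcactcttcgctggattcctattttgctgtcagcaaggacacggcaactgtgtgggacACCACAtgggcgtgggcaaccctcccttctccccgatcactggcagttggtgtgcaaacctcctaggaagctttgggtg
Gzmb: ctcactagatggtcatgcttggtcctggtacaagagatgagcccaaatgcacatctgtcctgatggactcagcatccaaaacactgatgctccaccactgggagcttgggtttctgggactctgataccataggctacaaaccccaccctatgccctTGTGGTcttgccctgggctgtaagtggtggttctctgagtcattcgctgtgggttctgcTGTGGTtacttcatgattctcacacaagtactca
Cma1: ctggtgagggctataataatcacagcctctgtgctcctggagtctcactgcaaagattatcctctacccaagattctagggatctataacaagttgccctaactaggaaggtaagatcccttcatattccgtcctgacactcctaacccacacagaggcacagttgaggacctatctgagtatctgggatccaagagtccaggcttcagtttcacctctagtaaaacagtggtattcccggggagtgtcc

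The RUNX letters TGTGGT, searched on both strands, were present in 6 of the 7 members with a promoter in the table (*Cpa3*, *Ctsg*, *Gzmb*, *Mcpt1*, *Mcpt4* and *Mcpt8*) and in 14.045% of 32851 promoters of the same length. *Cma1* was the member without them. The *Mcpt1* and *Mcpt4* promoters have the same bases on both sides of these letters, so they are not separate instances. Both genes had few counts, 7 and 3 over the 12 libraries. The GATA letters AGATAA were in 1 of 7, *Cpa3*, against 10.0% of all promoters. The other letters searched were CACATG (the E-box of MITF), found in *Ctsg* alone against 12.3% of all promoters, GAGGAA (PU.1), found in *Ctsg* and *Mcpt8* against 23.3%, and TATAAA on the sense strand, found in *Cpa3*, *Mcpt1* and *Mcpt4* against 7.59%. *Cpa3* and *Ctsg*, which were both higher in KO, and *Gzmb*, which was lower, all held TGTGGT, while *Cma1*, also higher, did not. Whether these letters go with the direction of change was not tested. A match is a description of the sequence and not a binding site.

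Depth ranged from 5611846 counts (Over-con replicate 2) to 12866545 counts, with a median of 10221419, and levels are given as CPM, counts scaled to a common library size with TMM factors over the 12 libraries. A count of 3, taken as the floor below which a level is not read, equals 0.230 to 0.528 CPM. *Stella* itself was at 0 counts in the 9 libraries of KO, KO-con and Over-con and at 30.3 ± 1.85 CPM (SD, n = 3) in Over, so the knockout label could not be checked on its RNA. Genes with several listed transcripts can be undercounted in the table (*Gapdh*, with 2, had 23 counts over all libraries), so a low value of such a gene is not read as absence.

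The members separated into a pair of abundant genes, 4 scarce genes and 4 genes at the floor. *Cpa3* ranked between 87 and 521 among all transcripts by library and took 0.0357% to 0.119% of the counts. *Ctsg* ranked between 758 and 2143. *Cpa3* and *Ctsg* together made up 98.1% to 99.4% of the summed CPM of the 10 members in every library. Per transcript length, as CPM per kilobase of transcript (RPKM) over the 12 libraries, the mean level was 521 for *Cpa3*, 172 for *Ctsg*, 3.80 for *Mcpt8*, 3.59 for *Gzmb*, 1.86 for *Mcpt2* and 1.37 for *Cma1*. *Cpa3* and *Ctsg* did not overlap each other in RPKM within any group, whereas the 4 scarce genes changed their order from group to group.

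**Figure D1:**
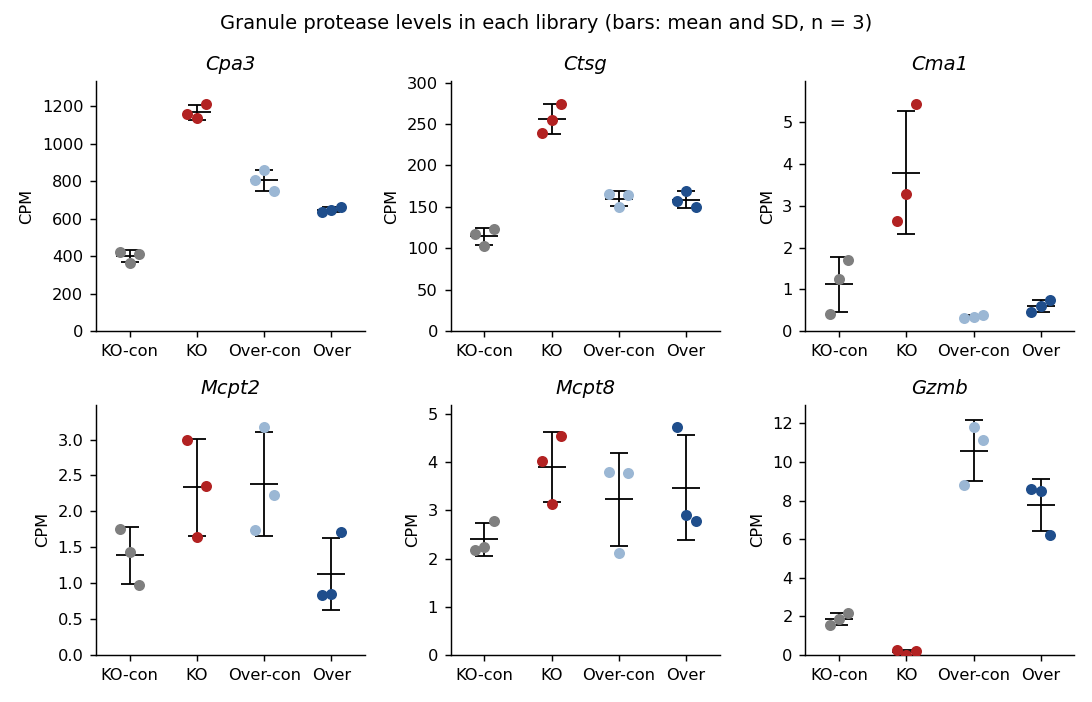
Level of the 6 measurable members in each library. The vertical axes are CPM from 0 (each panel has its own scale), points are libraries, and bars give the mean and SD of 3 libraries per group. *Cpa3* and *Ctsg* were highest in KO and lowest in KO-con, and *Gzmb* was highest in Over-con and at the floor in KO.

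The carboxypeptidase gene *Cpa3*, whose enzyme trims C-terminal aromatic residues and degrades venom toxins, was at 425, 363 and 415 CPM in KO-con replicates 1 to 3 and at 1158, 1138 and 1214 CPM in KO. In Over-con it was at 806, 861 and 749.5 CPM, and in Over at 636, 649 and 661 CPM. No library of any group overlapped another group, in the order KO, Over-con, Over and KO-con. The group means were 1170.1 ± 39.7 CPM in KO against 401 ± 33.4 in KO-con, a difference of 1.55 ± 0.08 in log2 units (standard error), which all log2 values below carry. Over, at 649 ± 12.9 CPM, was lower than Over-con, at 806 ± 55.6, by a log2 fold change of -0.30 ± 0.06. The control groups differed by -0.9997 ± 0.0783 (KO-con against Over-con), and set against Over-con in place of its own control the KO value was 0.54. Set against KO-con in place of Over-con, the Over value was 0.70, so the direction of the *Cpa3* difference in Over turned with the control chosen. In bulk RNA, more cells of a type and more RNA per cell cannot be told apart.

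*Ctsg* encodes cathepsin G, a chymotrypsin-like protease of neutrophils and mast cells. It was at 117, 103 and 122.7 CPM in KO-con and at 239, 254 and 274 CPM in KO. The Over-con libraries were at 166, 149.96 and 164 CPM and the Over libraries at 157, 169.5 and 149.9 CPM. KO lay above and KO-con below all other libraries, while Over and Over-con overlapped. The means were 256 ± 17.6 against 114 ± 9.99 CPM for KO and KO-con, a log2 fold change of 1.17 ± 0.08. Over and Over-con, at 159 ± 9.93 and 159.9 ± 8.65 CPM, gave a log2 fold change of 0.00 ± 0.07. KO-con was lower than Over-con by -0.48 ± 0.08, and with the controls exchanged KO against Over-con was 0.68 and Over against KO-con 0.48.

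The fold change of *Cpa3* was larger than that of *Ctsg* in both *Stella* comparisons. The ratio of *Cpa3* to *Ctsg* counts was 3.51 ± 0.129 in KO-con (3.38 to 3.64), 4.58 ± 0.227 in KO (4.43 to 4.84), 5.06 ± 0.610 in Over-con (4.56 to 5.74) and 4.10 ± 0.296 in Over (3.83 to 4.41). The KO libraries did not overlap KO-con, and the Over libraries did not overlap Over-con, in opposite directions. The summed CPM of the 10 members followed *Cpa3*, at 1436 ± 56.4 in KO, 982 ± 48.4 in Over-con, 821 ± 11.99 in Over and 522 ± 42.5 in KO-con.

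**Figure D2:**
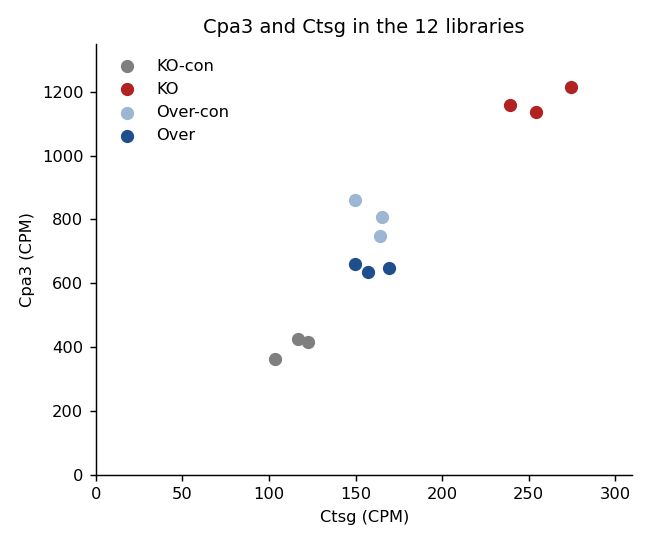
*Cpa3* against *Ctsg* in the 12 libraries, both axes in CPM from 0, 1 point per library, coloured by group. The 4 groups lie apart, from KO-con at the lower left to KO at the upper right, and Over lies under Over-con at the same *Ctsg* level.

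Among the chymases, *Cma1*, the connective tissue mast cell chymase, had 4, 14 and 14 counts in KO-con and 23, 38 and 60 counts in KO. Over-con held 3, 2 and 4 counts and Over 5, 8 and 7. KO stood above all other libraries, and the Over-con libraries sat at or near the floor. In CPM the levels of KO and KO-con were 3.80 ± 1.46 and 1.12 ± 0.651, those of Over and Over-con 0.608 ± 0.143 and 0.349 ± 0.0404, and the log2 fold change of KO against KO-con was 1.79 ± 0.40. KO-con replicate 1 was the low library of its group, and without it the change was 1.40. Without KO-con replicate 3 it was 2.15. *Cma1* did not pass the filter on low counts in Over against Over-con or in KO-con against Over-con, and set against Over-con in place of its own control the KO value was 3.41.

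*Mcpt2*, a mucosal mast cell chymase, was low throughout. KO-con held 17, 16 and 8 counts, KO 26, 19 and 26, Over-con 17, 18 and 23, and Over 9, 11 and 16. The KO libraries overlapped KO-con, with 2.33 ± 0.674 and 1.39 ± 0.397 CPM. Over, at 1.13 ± 0.504 CPM, lay below Over-con, at 2.38 ± 0.724, by a narrow gap, with no overlap. The log2 fold changes were 0.71 ± 0.35 and -1.05 ± 0.38, and with the controls exchanged 0.00 in KO and -0.35 in Over. *Mcpt1*, the other mucosal chymase, had 7 counts in all 12 libraries, of which 4 were in KO-con and 3 in Over. *Mcpt4*, the main chymotrypsin-like chymase of mouse connective tissue mast cells, had 3 counts in all. No fold change is given for *Mcpt1* or *Mcpt4*, which were at or under the floor in each library.

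*Mcpt8*, the protease by which mouse basophils are recognised, had 21, 25 and 23 counts in KO-con, 35, 36 and 50 in KO, 37, 12 and 39 in Over-con and 51, 38 and 26 in Over. The KO libraries lay above KO-con, at 3.90 ± 0.717 against 2.399 ± 0.338 CPM, and the Over and Over-con libraries overlapped both. The log2 fold change was 0.71 ± 0.26 in KO and 0.05 ± 0.28 in Over, and with the controls exchanged 0.22 in KO and 0.55 in Over.

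The tryptases were not measurable. *Tpsb2*, the tetramer-forming tryptase of connective tissue mast cells, had 2, 3 and 1 counts in KO, 2, 0 and 0 in Over-con and 0 in the other 6 libraries. *Tpsab1*, which RefSeq lists as a transcribed pseudogene, had 0 counts in each of the 12 libraries. With totals between 5611846 and 12866545 counts, a count of 0 allows up to 0.528 CPM in the shallowest library and 0.230 CPM in the deepest, for counting error alone.

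*Gzmb* encodes granzyme B, the aspartate-specific protease of cytotoxic granules, which some mast cells also carry. It had 86, 67 and 115 counts in Over-con, 93, 111 and 58 in Over, 15, 21 and 18 in KO-con, and 2, 0 and 2 in KO. In that order the groups did not overlap, although Over-con and Over were close, at 10.6 ± 1.57, 7.77 ± 1.36, 1.87 ± 0.315 and 0.137 ± 0.121 CPM. All KO libraries were under the floor, so the KO level is given as a ratio of pooled counts, 0.0690 of KO-con with an exact 95% interval of 0.0181 to 0.187 for counting error. Over against Over-con had a log2 fold change of -0.41 ± 0.17. Between the control groups, the KO-con level was under that of Over-con by a log2 fold change of -2.48 ± 0.23. Against KO-con in place of its own control, Over was higher by 2.07, so its direction in Over turned with the control, as that of *Cpa3* did.

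**Figure D3:**
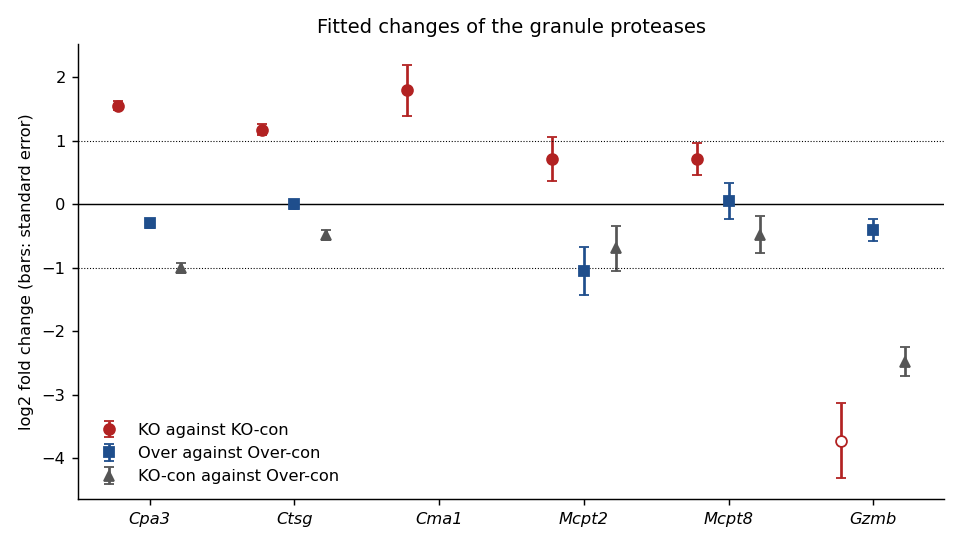
Fitted log2 fold change of each measurable member in the 3 comparisons, with standard errors; the vertical axis is in log2 units and dotted lines mark -1 and 1. The open point is *Gzmb* in KO against KO-con, where the KO libraries held 4 counts in all and the fitted value depends on the prior count; *Cma1* was fitted in the KO comparison alone.

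Of the 10 members, 6 passed the filter on low counts in KO against KO-con and 5 in each of the other comparisons. A transcript was called where edgeR's quasi-likelihood test gave an adjusted p under 0.05 and the log2 fold change was beyond 1 in size. In KO against KO-con, *Cpa3*, *Ctsg* and *Cma1* were called higher, where 0.825% of all 9457 transcripts tested were, and *Gzmb* lower, where 0.878% were. *Cma1* (4 to 14 counts in KO-con) and *Gzmb* (0 to 2 in KO) passed the filter with the counts of the group where they were high. Under a minimum of 10 counts in every library neither was tested, and 2 members were called. The libraries of the groups did not overlap for 5 of the 6, all but *Mcpt2*, as for 30.5% of all transcripts. In Over against Over-con none of the 5 was called higher or lower by edgeR (0.0957% and 0.0745% of 9401 transcripts) or by DESeq2. Under an unadjusted p of 0.05 there were 3 members, but the share of all transcripts under it was not counted, so nothing is read from this number. *Cpa3* alone passed the adjusted p without the fold threshold, on the lower side (0.883%, against 0.766% on the higher side). The groups did not overlap for *Cpa3*, *Mcpt2* and *Gzmb*, as for 19.3% of all transcripts. In KO-con against Over-con *Gzmb* was called lower (1.32% of 9321) and no member higher (0.837%), *Cpa3*, *Ctsg* and *Gzmb* passed the adjusted p on the lower side (8.19%, against 8.08% higher), and these 3 did not overlap (32.1%). *Cpa3* sat just inside the fold threshold there and was called under several alternatives. For the difference between the KO and Over effects, fitted on all 12 libraries, *Cpa3*, *Ctsg* and *Mcpt2* were called higher (0.798% of 9903) and *Gzmb* lower (1.1%). Since values of these comparisons were known when the members were picked, nothing is read from these shares. The median log2 fold change over the members that passed the filter was 0.94 in KO (6 members, with *Cma1*). It was -0.30 in Over (5 members, without *Cma1*), against 0.01 and 0.00 over all transcripts. The medians cover unlike members picked with values known, so nothing is read from them either. The comparisons share control libraries.

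The 15 genes of the chymase locus were unequally read. *Ctsg* had 20804 counts over the 12 libraries, *Gzmb* 588, *Mcpt8* 393, *Mcpt2* 206 and *Cma1* 182. The 8 neighbours that are not members had few or none: *Gzmc* had 22, *Cma2* and *Mcpt9* had 3 each, *Gzmf* had 2, and *Gzmd*, *Gzme*, *Gzmg* and *Gzmn* had 0. None of them passed the filter. Of the 9 listed genes beside or like the tryptases, *Prss41*, a membrane-anchored serine protease, was the 1 gene tested, with 3.51 ± 0.417 CPM for KO against 3.20 ± 0.751 for KO-con (edgeR adjusted p = 0.77).

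**Figure D4:**
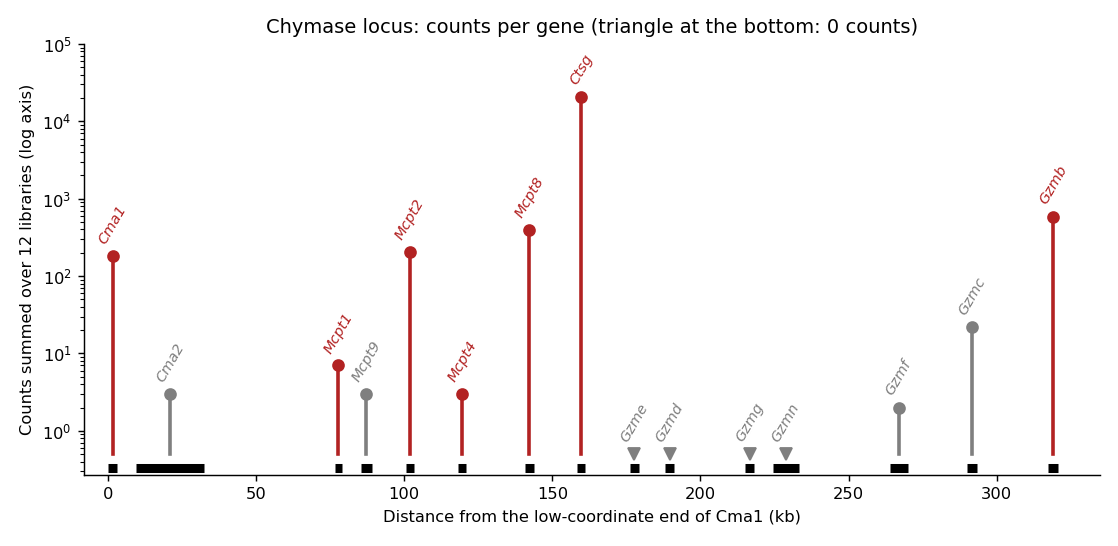
Counts summed over the 12 libraries for the 15 protein-coding genes of the chymase locus, by distance from the low-coordinate end of *Cma1* in kb; the vertical axis is logarithmic, members are in red, other genes in grey, and triangles mark genes at 0 counts. *Ctsg* stands above its neighbours, and the 4 granzyme genes next to it are at 0.

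The other leukocyte granule proteases were at low levels. Of 17 listed genes, 3 were tested in KO against KO-con, and 1 fell and none rose. *Mmp8*, the neutrophil collagenase, fell to 1.24 ± 0.577 CPM in KO from 6.58 ± 0.658 in KO-con (log2 fold change -2.45 ± 0.29, edgeR adjusted p = 4.56e-05). It was also higher in KO-con than in Over-con, at 1.57 ± 0.296 CPM (log2 fold change 2.02 ± 0.25, edgeR adjusted p = 8.55e-06), and KO against Over-con was -0.42. *Elane*, the neutrophil elastase, had 4 counts in all, and *Gzma*, granzyme A, had 0. In Over none of the 3 tested was called by edgeR or DESeq2, and 1 was under an unadjusted p of 0.05. The list's median log2 fold change was -0.66 in KO, where *Mmp8*, *Mmp9* and *Ctsw* were tested. It was 0.52 in Over, where *Mmp8*, *Mmp9* and *Prtn3* were. These are the values of *Ctsw* in KO (edgeR adjusted p = 0.341) and of *Mmp8* in Over (0.513), so the medians are not compared.

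The list of protease maturation and storage held abundant lysosomal cathepsins. Of 13 transcripts of 12 genes tested, none was called in KO or Over by edgeR or DESeq2, and 5 and 3 were under an unadjusted p of 0.05. By the adjusted p alone, 2 were higher and 3 lower in KO (5.83% and 5.96% of all transcripts), and 1 was higher and 1 lower in Over. The median log2 fold change was 0.01 in KO and -0.07 in Over. The most abundant, *Ctsd* and *Ctsl*, lysosomal cathepsins, were at 2426 ± 236 and 1561 ± 68.0 CPM in KO against 2309 ± 122 and 1509.6 ± 48.3 in KO-con (edgeR adjusted p = 0.615 and 0.686). Chosen after their values were seen, *Ndst2*, the sulfotransferase that mast cells need for heparin, was higher in KO by a log2 fold change of 0.60 ± 0.08 (edgeR adjusted p = 8.94e-05) and in Over by 0.42 ± 0.08 (adjusted p = 0.0159), and the better counted of the 2 transcripts of *Ctsc*, the activating peptidase, was lower in KO by -0.27 ± 0.08 (adjusted p = 0.0356). The others past the adjusted p in KO were *Slc18a2*, higher by 0.56 ± 0.09 (edgeR adjusted p = 0.000888), *Ctse*, lower by -0.66 ± 0.13 (0.00256), and the other *Ctsc* transcript, by -0.41 ± 0.11 (0.029). In KO-con against Over-con, 2 were higher and 4 lower by the adjusted p (8.08% and 8.19% of all transcripts). Of these *Ctse*, an aspartic protease of the endosome, was lower by -1.03 ± 0.11 (edgeR adjusted p = 1.4e-06), which was under the fold threshold without KO-con replicate 2 (-0.94) or Over-con replicate 3 (-0.92).

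Of the granule release machinery, 11 genes were tested and none was called in KO or Over by edgeR or DESeq2. By the adjusted p alone, 1 was higher in KO (5.83% of all transcripts) and none in Over (0.766%), as with an unadjusted p under 0.05, and the median log2 fold change was 0.00 in KO and 0.02 in Over. The gene higher in KO, named after its values were seen, was *Sytl1* (0.52 ± 0.09, edgeR adjusted p = 0.00108). It also differed between the control groups, lower in KO-con than in Over-con by -0.57 ± 0.09 (edgeR adjusted p = 0.00022). *Stx4a*, a plasma membrane syntaxin, had 130.1 ± 15.3 CPM in KO against 118 ± 9.39 for the control (edgeR adjusted p = 0.322), and *Lyst*, the regulator of secretory lysosome size, at 119.7 ± 9.24 and 122 ± 10.9 (edgeR adjusted p = 0.879).

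Of 9 protease inhibitors tested in KO, 4 were higher and 2 lower by the adjusted p (5.83% and 5.96% of all transcripts), and 1 was called each way (0.825% and 0.878%), with a median log2 fold change of 0.02. *Serpinb9b*, a serpin of the granzyme B inhibitor family, had 31.9 ± 4.81 CPM in KO against 13.6 ± 2.03 for the control (log2 fold change 1.24 ± 0.14, edgeR adjusted p = 3.08e-05). *Serpina3n*, a secreted serpin that inhibits cathepsin G and granzyme B, was at 75.4 ± 10.5 against 182 ± 24.3 CPM (-1.27 ± 0.11, edgeR adjusted p = 1.34e-06). Chosen after their values were seen, *Serpinb1a*, an intracellular inhibitor of cathepsin G and elastase, was higher by 0.88 ± 0.10 (adjusted p = 3.08e-05), and *Cst7*, cystatin F, an inhibitor of cathepsin C, by 0.66 ± 0.10 (adjusted p = 0.000474). *Slpi*, chosen in the same way, was lower by -0.82 ± 0.18 (edgeR adjusted p = 0.00754). In Over, 1 of 10 was called: *Spint1*, a Kunitz inhibitor of trypsin-like proteases, was at 1.25 ± 0.383 CPM against 3.18 ± 0.637 (-1.41 ± 0.32, edgeR adjusted p = 0.0351). That call did not hold without Over-con replicate 1 (-1.37) or Over replicate 1 (-1.45), 2 (-1.16) or 3 (-1.61), with the replicate block (-1.34) or with all 12 libraries in 1 fit (-1.40). DESeq2 gave it no adjusted p and called no inhibitor in Over. *Spint1* was at 0.0298 ± 0.0517 CPM in KO-con, under the floor.

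**Figure D5:**
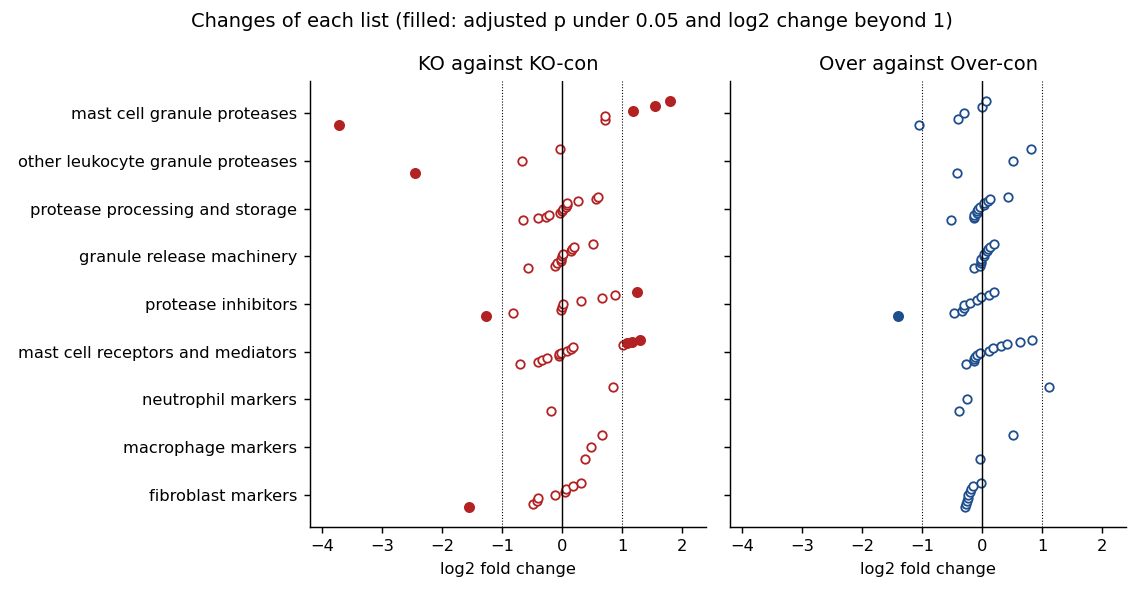
Log2 fold change of every tested transcript of each list shown, in KO against KO-con (left) and Over against Over-con (right); filled points were called, open points were not, and dotted lines mark -1 and 1. The lists of tryptase locus neighbours, cytotoxic lymphocyte markers and germ cell markers, which also had tested transcripts, are not drawn. Storage and release genes lie between -1 and 1, while proteases and inhibitors spread to both sides in KO.

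The identity of the cells that carry these transcripts was read against marker lists. Of the 26 listed mast cell receptor and mediator genes, *Fcer1a*, the IgE-binding chain of the receptor and a gene with 1 listed transcript, had 0 counts, as did *Mrgprb1*, and *Mrgprb2*, the connective tissue mast cell receptor, had 1. *Kit* (2 listed transcripts) had 10 counts and *Ms4a2* (4 listed transcripts) 0, which cannot be read as absence. *Fcer1g*, the shared signalling chain, had 100.7 ± 5.86 CPM in KO against 105 ± 7.64 for the control, and *Ptgs1* and *Hpgds*, enzymes of prostaglandin synthesis, were also well expressed, at 100.9 ± 2.06 and 31.8 ± 1.34 CPM in KO. The summed level of this list was 372 to 397 CPM in KO, 369 to 390 in KO-con, 406 to 426 in Over-con and 385.8 to 392.5 in Over, ranges that overlapped between KO and KO-con while the proteases did not. Over lay below Over-con without overlap, the direction of the summed proteases there, and the part of this list in the protease values was not tested.

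In KO, 3 of 14 transcripts of that list were called higher and none lower by edgeR (0.825% and 0.878% of all transcripts), and 2 by DESeq2. The median log2 fold change was 0.02. By the adjusted p alone, 3 were higher and 1 lower (5.83% and 5.96% of all transcripts). The lower was a transcript of *Tph1*, at 16.2 ± 2.33 CPM against 26.7 ± 3.64 in KO-con (-0.71 ± 0.14, edgeR adjusted p = 0.00268). The best counted transcript of *Il1rl1*, chosen like *Tph1* after its values were seen, changed by 0.07 ± 0.09 (edgeR adjusted p = 0.681). *Hdc*, which makes histamine, was at 4.17 ± 1.83 CPM against 1.70 ± 0.685 (log2 fold change 1.30 ± 0.36, edgeR adjusted p = 0.0267), and lost its call without KO-con replicate 1 (1.00) or 3 (1.38) or KO replicate 2 (1.44) or 3 (0.88). *Il13* was at 9.94 ± 3.36 against 4.75 ± 0.528 CPM (1.09 ± 0.23, edgeR adjusted p = 0.00558), and lost its call without KO-con replicate 1 (0.99) or KO replicate 3 (0.79). A transcript of *Stat5b* (1.16 ± 0.36, edgeR adjusted p = 0.0485) lost its call without KO-con replicate 2 (1.097) or 3 (0.86) or KO replicate 2 (1.00), with DESeq2 (1.17), and on counts summed per gene (0.53). In Over none of 12 was called by edgeR or DESeq2, and 4 were under an unadjusted p of 0.05, with a median of 0.03.

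Of the neutrophil markers, *Mpo* and *S100a8*, each with 1 listed transcript, had 2 counts each in all. *Lcn2*, a siderophore-binding granule protein, had 179 ± 17.1 CPM in KO against 100.8 ± 14.9 for its control (0.84 ± 0.10, edgeR adjusted p = 4.78e-05) and 199 ± 16.04 in Over against 263 ± 23.1 (-0.39 ± 0.08, adjusted p = 0.0166), and *Cxcr2*, a chemokine receptor, was at 163 ± 5.70 CPM against 187 ± 14.3 in KO (adjusted p = 0.123). The summed neutrophil list was 330 to 366 CPM in KO, 261 to 303 in KO-con, 536 to 613 in Over-con and 447 to 481 in Over, moving in the direction of *Cpa3* in each *Stella* comparison. Almost all of that sum was *Lcn2* and *Cxcr2*. In KO the rise was that of *Lcn2*, since *Cxcr2* went the other way (-0.19 ± 0.07). In Over both were lower, *Cxcr2* by -0.25 ± 0.07 (edgeR adjusted p = 0.0784). Between the control groups, *Lcn2* was called lower in KO-con than in Over-con (-1.38 ± 0.10, edgeR adjusted p = 2.43e-09). The KO and Over means of *Lcn2* both lay above KO-con and below Over-con, so both directions turned with the control chosen. The part of this list in the protease values was not tested. The summed macrophage list was 227 to 266 CPM in KO, 177 to 196 in KO-con, 211 to 231 in Over-con and 224 to 230 in Over, with 4 of its 9 genes at 0 (*C1qa* and *C1qb*, with 1 listed transcript each, among them). KO lay above KO-con without overlap, the direction of *Cpa3*, while Over and Over-con overlapped. Of 3 genes tested in KO, *Fcgr1* (0.38 ± 0.08, edgeR adjusted p = 0.00333) and *Cd68* (0.48 ± 0.12, 0.0158) were higher by the adjusted p (5.83% of all transcripts). In Over, *Fcgr1* changed by -0.04 ± 0.06 (edgeR adjusted p = 0.845) and *Cd68* was higher by 0.51 ± 0.09 (0.00645). The part of these genes in the protease values was not tested. The cytotoxic lymphocyte list was at 22.9 to 36.1 CPM in KO, 32.5 to 45.6 in KO-con, 21.5 to 29.8 in Over-con and 19.7 to 24.98 in Over, almost all of it *Prf1*, perforin, at 28.4 ± 6.89 CPM in KO, 38.6 ± 6.85 in KO-con, 25.1 ± 4.005 in Over-con and 22.02 ± 2.46 in Over. *Prf1* was thus higher in KO-con than in Over-con (0.62 ± 0.13, edgeR adjusted p = 0.00245), where *Gzmb* was lower. Against their own controls, its log2 fold change was -0.44 ± 0.16 in KO (edgeR adjusted p = 0.0813) and -0.20 ± 0.13 in Over (0.533). Both were in the direction of *Gzmb*, and neither passed the adjusted p.

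The fibroblast list, fixed because the STO feeder cells are fibroblasts, summed to 877 to 1268 CPM in KO, 1002 to 1183 in KO-con, 1409 to 1594 in Over-con and 1248 to 1305 in Over, with *Pdgfrb* at 0. KO and KO-con overlapped. Over lay below Over-con without overlap, with a median log2 fold change of -0.24 over the list, the direction of *Cpa3* there, and the part of these cells in the protease values was not tested. Of 9 transcripts tested, a transcript of *Pdgfra* was called lower in KO (-1.56 ± 0.36, edgeR adjusted p = 0.00998), which was lost without KO-con replicate 1 (-1.22) or KO replicate 2 (-1.53) and on counts summed per gene (-0.96). *Col1a2* and *Col1a1*, fibrillar collagens, were at 536 ± 91.4 and 306 ± 65.0 CPM in KO and 524 ± 50.6 and 333 ± 30.3 in KO-con. Most listed germ cell markers had few or no counts in these libraries, and most of those have several listed transcripts. By RT-PCR the study reported RNA of *Ddx4*, *Pou5f1*, *Ifitm3*, *Stella*, *Dazl* and *Prdm1* in its FGSCs. It also reported staining for MVH, STELLA and OCT4 protein. *Ddx4* (MVH) had 0 counts and *Dazl* and *Pou5f1* 1 each, all with 2 listed transcripts and so possibly undercounted, and *Mael*, with 1 listed transcript, had 2. *Ifitm3* (Fragilis), at 124 CPM on average, and *Prdm1* (Blimp1), at 0.882, were the germ cell list genes tested in KO. *Prdm1*, which leukocytes also use, was lower in KO (-2.48 ± 0.44, edgeR adjusted p = 0.00147), where its level of 0.312 ± 0.107 CPM was near the floor, and DESeq2 gave it no adjusted p.

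The transcripts most like *Cpa3* over the 12 libraries, by Pearson's r of log2 CPM among 9902 others, were *Rubcnl* (r = 0.969), *Otog* (0.961), *Slc48a1* (0.954), *Ctsg* (0.946) and *Rtf1* (0.945). Those most like *Ctsg* were *Slc48a1* (0.978), *Rubcnl* (0.966), *Fbxo32* (0.948), *Cat* (0.947) and *Cpa3* (0.946). The libraries form 4 groups of 3 and are not 12 independent points, so the values are given without a test. *Rubcnl*, an autophagy regulator, had means of 24.6, 16.2, 15.2 and 10.4 CPM in KO, Over-con, Over and KO-con, the order of *Cpa3*. *Slc48a1*, a heme transporter, had means of 323, 255, 249 and 198 CPM in the same order. Among the members, the coefficient with *Cpa3* was 0.57 for *Mcpt8*, 0.56 for *Mcpt2*, 0.42 for *Cma1* and -0.38 for *Gzmb*, and *Cma1* and *Gzmb* ran opposite to each other (r = -0.90).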

How the data were processed

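RNA-seq libraries were made by the authors with a stranded mRNA kit, aligned to mm9 with HISAT2 and deposited as raw counts per RefSeq transcript. The counter, its handling of strand and of reads shared by transcripts are not given in the sources used here. The 12 libraries held 5611846 to 12866545 counts. From the deposited counts, each comparison was fitted on its own 6 libraries with edgeR 4.0.16 (filterByExpr, TMM, quasi-likelihood test, Benjamini-Hochberg over all transcripts tested), and the difference of effects on all 12. The standard error of a log2 fold change is its size over the square root of F. Levels are CPM with TMM over 12 libraries. DESeq2 1.42.0, the authors' tool, was an alternative. RPKM used the length of the longest coding transcript in GENCODE vM1. Models were tested on simulated data. Members and lists were chosen with earlier results of these data known. Named genes were all members, for each list up to 3 called genes with the lowest adjusted p (with none called, the 2 most abundant), and the 5 transcripts most like *Cpa3* and *Ctsg*. Same-numbered libraries did not deviate together (r = -0.152 to 0.0568), so numbers did not pair samples. No 2 libraries of a group agreed within sampling noise (chi-square per degree of freedom 2.02 to 13.99).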

Additional observations from a re-analysis of the deposited data

Results flagged for a closer look

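The effect of the knockout (KO against KO-con) and that of overexpression (Over against Over-con) were compared by edgeR's interaction term over all 12 libraries, and 4 of the 6 members tested passed the call rule (an adjusted p under 0.05 and a log2 difference beyond 1). These genes were chosen with their values known, so this is a description. The difference of log2 fold changes was 1.86 for *Cpa3*, 1.18 for *Ctsg*, 1.77 for *Mcpt2* and -3.31 for *Gzmb*, against 0.798% of 9903 transcripts called in the higher and 1.1% in the lower direction. *Cpa3*, *Ctsg* and *Gzmb* were called with each library left out. *Mcpt2* was not called without KO-con replicate 1 (1.96), 2 (1.77) or 3 (1.59), KO replicate 1 (1.55) or 3 (1.75), Over-con replicate 2 (1.56) or Over replicate 1 (1.61) or 2 (1.58), and it had 206 counts in all 12 libraries. The fitted *Gzmb* value depends on the prior count, since KO held 4 counts.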

How the results depend on the processing

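Members called in KO against KO-con numbered 4, with 2 under a minimum of 10 counts in every library (*Cma1* and *Gzmb* were then not tested) and 2 with Over-con in place of KO-con (*Cma1* and *Gzmb*). DESeq2 gave 3, with no adjusted p for *Gzmb*. In Over against Over-con none was called, with 1 (*Cpa3*) with no fold threshold and 1 (*Gzmb*, log2 fold change 2.07, reversed) with KO-con as control, where *Cpa3* went from -0.30 to 0.70 and *Ctsg* from 0.00 to 0.48, neither called. In KO-con against Over-con 1 was called, with 2 under the 10-count minimum, 2 with all 12 libraries in 1 fit, 2 with the replicate block and 3 with no fold threshold, and 1 to 3 with a library left out, as *Cpa3* lies at the threshold (-1.05 to -0.93) and *Cma1* was tested and called without KO-con replicate 1. For the difference of effects, 4 were called, 2 under the 10-count minimum, 3 with the replicate block (*Mcpt2* lost, 1.75), and 3 to 4 with a library left out. In KO, leaving out a library gave 4 throughout, and in Over 0. The replicate block gave 4 members in KO and 0 in Over. Of 341 single-member values, 319 kept their side of the threshold. Transcripts called in KO numbered 161, with 103 under the 10-count minimum and 1115 with no fold threshold. In Over they numbered 16, with 34 without a filter, 8 with the block, 155 with no fold threshold, 73 without Over-con replicate 3, 8 without Over replicate 1 and 9 without Over replicate 3. With no fold threshold the control comparison went from 201 to 1516 and the difference of effects from 188 to 856. Control swaps gave 156 in Over. Of 339 values of genes of the other lists past the call rule, an alternative chosen after seeing the data, 54 fell under it and 0 reversed. Members under about 60 counts a library (*Cma1*, *Mcpt2*, *Mcpt8*) are limited by depth.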
